A study of Rattus norvegicus with 10 samples.

Results

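Masp1 and 8 further genes of the complement system were followed in hippocampal RNA-seq (left side) from 10 TgF344-AD rats, all male. The 9 genes were taken by symbol from 17168 genes in the deposited tables. Masp1 was picked because its values in the drug-treated and untreated rats did not overlap, so its difference is given as a description with no test. C1qa, C1qb, C1qc, C1s, C3, C4a, Serping1 and Cd59 were listed for their place in the classical pathway or its regulation. TgF344-AD rats are Fischer rats that carry mutant human transgenes of familial Alzheimer's disease, among them APP with the Swedish mutations, driven by the mouse prion promoter, and all 10 rats are transgenic. The 5 untreated rats ate plain rodent chow, and the 5 RG2833 rats ate chow holding 750 mg of RG2833 per kg from 5 months of age for 6 months. RG2833 inhibits the histone deacetylases HDAC1 and HDAC3. All rats were killed at 11 months, and wild-type rats were not analysed here. The design asks how the drug affects hippocampal gene expression in transgenic males. Where the design text gives the timing it speaks of ibudilast, whereas the title and the sample labels name RG2833, which is followed here.

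The complement system is a cascade of proteases that marks surfaces for removal. In the classical pathway the recognition molecule C1q activates its proteases C1r and C1s, which cleave C4 and C2. In the lectin pathway mannose-binding lectins, ficolins and collectins take the place of C1q, and the proteases MASP-1 and MASP-2 that of C1r and C1s. Both routes meet at C3, whose fragments are read by receptors on microglia and other phagocytes, and the terminal components then build a membrane pore. In the brain C1q is made mainly by microglia, and C1q and C3 are known for tagging synapses that microglia remove. C1 inhibitor (Serping1) blocks C1r, C1s and the MASPs, and CD59 stops the assembly of the pore.

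Libraries held from 15118203 to 18533520 expected counts. All 9 members passed the filter on low counts, which left 12161 genes (70.8%) for testing. Levels below are in CPM, a gene's count as a share of its library's total scaled by TMM, so they compare libraries within a gene and not genes with each other. The neuronal list (Rbfox3, Snap25, Syt1, Slc17a7, Gad1 and Gad2) summed to 3024 to 5268 CPM. Some libraries stood apart in markers of other cells. Untreated replicate 2 and RG2833 replicate 1 held 6929 and 8190 CPM of Ttr, the marker of choroid plexus epithelium, against 3.11 to 236 CPM elsewhere. Untreated replicate 2 was also highest in 7 genes of fibroblasts and meninges (summed 1168 CPM, against 57.1 to 744 in the others), and untreated replicate 3 in 10 microglial genes (1335 CPM, against 677 to 1082). Of all genes tested, 0 passed an adjusted p of 0.05 in edgeR's quasi-likelihood test (percent called 0), 688 (5.66%) had an unadjusted p under 0.05 (2.94% with RG2833 higher, 2.71% with RG2833 lower), and DESeq2 called 7. Masp1 set aside as untested, DESeq2 called 0 of the complement genes listed by role.

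Masp1 encodes MASP-1, the protease that starts the lectin pathway, and by other splicing MASP-3, which activates factor D of the alternative pathway. The counts are per gene and do not separate these products. Masp1 stood at 27.3, 23.9, 26.7, 23.8 and 25.6 CPM in untreated replicates 1 to 5. In RG2833 replicates 1 to 5 it stood at 31.0, 33.0, 31.4, 34.4 and 32.6 CPM. Every RG2833 library was thus above every untreated one, with 3.75 CPM between the highest untreated and the lowest RG2833 value. This gap is what the gene was chosen for: across all genes tested, 1.00% had groups that did not overlap, 0.419% with RG2833 higher and 0.584% with RG2833 lower. The means were 25.5 ± 1.62 and 32.5 ± 1.36 CPM (SD, n = 5 each), 27.7% higher in RG2833, and the fitted log2 fold change was 0.35 (SE 0.06). The spread within each group was small, with a coefficient of variation of 6.35% in untreated and 4.17% in RG2833 libraries. The groups also stayed apart with total counts alone (highest untreated 28.3, lowest RG2833 30.5 CPM), with median-of-ratios scaling (27.3 and 30.9) and with upper-quartile scaling (27.7 and 30.6). In the authors' deposited table of TMM-normalized CPM the highest untreated value was 27.8 and the lowest RG2833 value 30.9. Leaving out any single library kept the log2 fold change between 0.33 and 0.38.

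**Figure D1:**
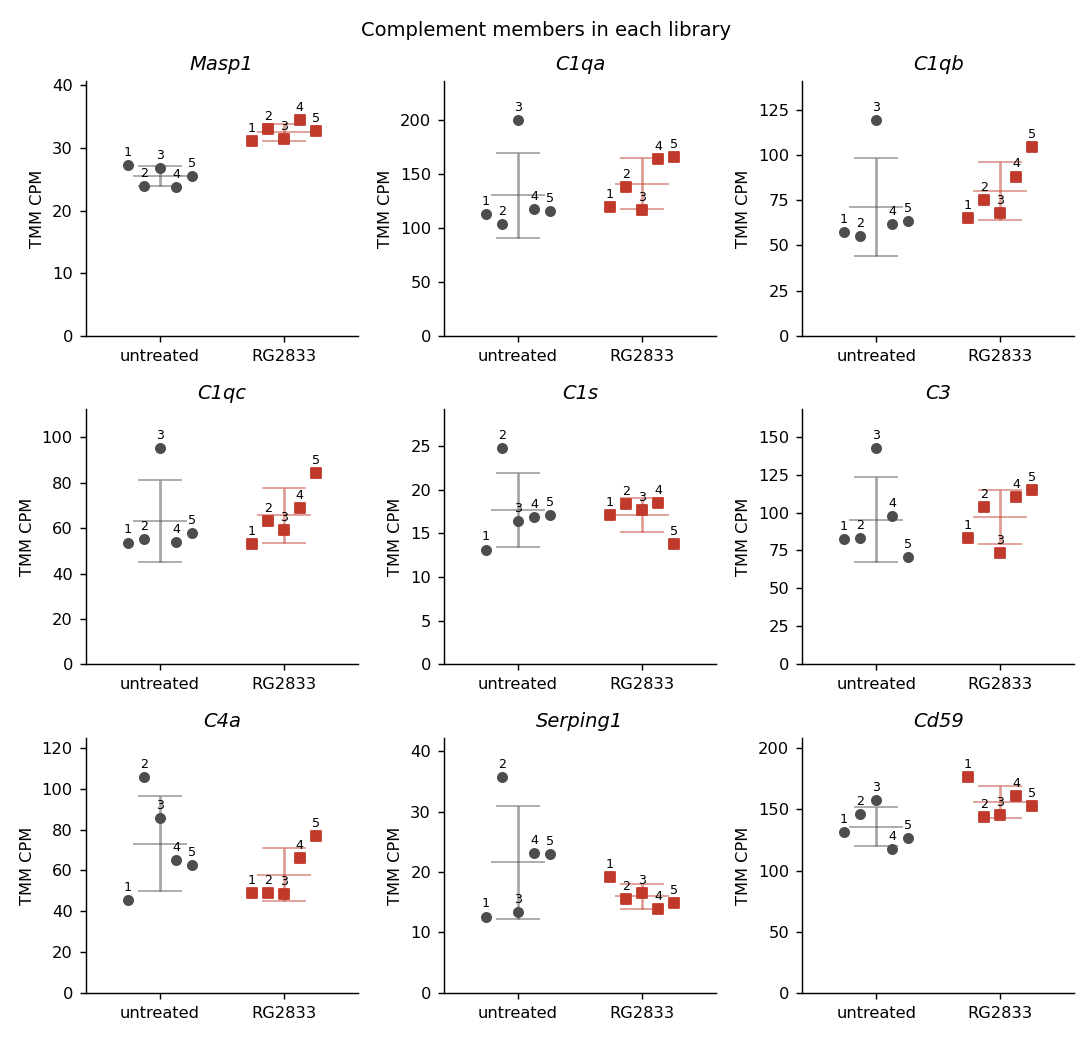
CPM of each of the 9 complement genes in every library (grey circles, untreated; red squares, RG2833; numbers are replicate numbers, and bars show the mean and SD of 5 libraries). Masp1 is the only one of the 9 whose groups do not overlap, which is why it was chosen; untreated replicate 3 is highest in C1qa, C1qb, C1qc and C3, and untreated replicate 2 in C1s, C4a and Serping1.

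Astrocyte markers moved in the same direction as Masp1. All 11 astrocyte genes measured had a positive fitted change, with a median log2 fold change of 0.34 against -0.01 over all genes tested. Of these 11 genes, 3 had an unadjusted p under 0.05 (5.66% over all genes tested), 0 passed the adjustment over all genes in edgeR, and 0 had groups that did not overlap (1.00% over all genes tested). The direction of this list was known from an earlier result of these data, so it is no independent support. The summed level of the list ran from 6980 to 10850 CPM in untreated and from 8049 to 11950 CPM in RG2833 rats, and so overlapped. Set against the list, Masp1 stood at nearly the same mean in both groups: the mean log2 ratio of Masp1 to the astrocyte genes was -3.81 ± 0.23 in untreated and -3.80 ± 0.24 in RG2833 libraries (SD, n = 5 each). The ratio varied more than Masp1 alone, whose log2 CPM had an SD of 0.09 in untreated and 0.06 in RG2833 libraries. Across the 10 libraries Pearson's r between Masp1 and the list was 0.713 and Spearman's rho 0.636, and r was 0.516 without the 2 libraries farthest from the list's median. For deviations from the group means r was 0.561 and rho 0.261. The astrocyte list was not alone in this. With the microglial list r of Masp1 was 0.356 and rho 0.467 over the 10 libraries, and 0.546 and 0.467 for deviations from the group means. Without the 2 libraries farthest from the microglial median r was 0.759 and rho 0.619. The part of the astrocyte genes in the Masp1 difference was not tested.

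The genes whose deviations from the group means were most like those of Masp1 over the 10 libraries were Tekt5 (r = 0.969), Rgcc (0.959), Wnt7b (0.936), Timm10b (0.930) and Gpi (0.927). Of these 5 genes, only Rgcc also had groups that did not overlap, with a log2 fold change of 0.30 (SE 0.07). Wnt7b had one of 0.38 (SE 0.15), and Tekt5 one of -0.07 (SE 0.24). With 12161 genes and 10 libraries, high values of r arise for many genes, and they are given as a ranking only.

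The 250 bases before the Masp1 start site are shown because Masp1 is the member the others are set beside (RefSeq, build GRCr8, chr11:90839472-90839721, plus strand). They hold none of 4 motifs searched on both strands: GAGGAA, the core bound by the myeloid factor PU.1 and other ETS factors; TTCNNNGAA, the STAT-type site; an NF-kB-type site; and TTGCNNAA, a C/EBP-type site. Of 33469 promoter windows of this length, 23.3%, 7.67%, 1.3% and 9.22% hold them, in that order. GC content of the window is 53.6%, against a median of 51.2%.
Masp1: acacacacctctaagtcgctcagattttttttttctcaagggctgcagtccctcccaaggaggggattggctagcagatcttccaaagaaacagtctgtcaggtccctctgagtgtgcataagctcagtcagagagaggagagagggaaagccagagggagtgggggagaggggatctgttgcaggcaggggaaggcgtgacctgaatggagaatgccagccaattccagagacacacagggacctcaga

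The remaining lectin pathway genes were scarce. Masp2, which encodes the protease that cleaves C4 and C2, averaged 4.04 ± 0.48 CPM without and 3.79 ± 1.06 CPM with the drug (SD, n = 5 each), a fitted change of -0.09 on the log2 scale (SE 0.19; edgeR adjusted p = 0.972). The 4 recognition molecules in the table were too low to test. Mannose-binding lectin genes Mbl1 and Mbl2 had 1 and 10 counts in all 10 libraries together, the ficolin gene Fcnb had 19, and the collectin gene Colec10 had 4. For comparison, a count of 0 allows up to 0.154 to 0.207 CPM in a library (3 counts, counting error only). Fcna and Colec11 were not analysed here.

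C1qa, C1qb and C1qc encode the 3 chains of C1q, and their transcripts went up and down together from rat to rat. C1qa stood at 113, 104, 199.9, 118 and 116 CPM in untreated replicates 1 to 5, and at 120, 138, 117, 164 and 166 CPM in RG2833 replicates 1 to 5. The highest library was untreated replicate 3, the lowest untreated replicate 2, and the groups overlapped. C1qb ran from 55.1 to 119 CPM (median 61.7) in untreated and from 65.4 to 104 CPM (median 74.8) in RG2833 rats. C1qc ran from 53.7 to 95.1 CPM (median 55.2) and from 52.8 to 84.4 CPM (median 63.2). In all 3 genes untreated replicate 3 lay well above the other 4 untreated libraries. With all libraries the log2 fold changes were 0.11 (SE 0.18) for C1qa, 0.17 (SE 0.22) for C1qb and 0.06 (SE 0.18) for C1qc, and none passed (edgeR adjusted p = 0.958, 0.947 and 0.982). Without untreated replicate 3 they were 0.32, 0.43 and 0.25, with unadjusted p of 0.0172, 0.0083 and 0.0555 and edgeR adjusted p of 0.312, 0.292 and 0.363. In that fit 1730 genes had an unadjusted p under 0.05, against 688 with all libraries. Leaving out any other single library gave values from 0.0423 to 0.174 for C1qa and from 0.0541 to 0.231 for C1qb, and turned C1qc to -0.0471 without RG2833 replicate 5. None of the 3 genes passed with or without untreated replicate 3.

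C1q transcripts followed the list of 10 microglial genes (among them Aif1, Csf1r, Cx3cr1, P2ry12, Tmem119, Trem2, Tyrobp, Ctss and Gpr34) closely. Over 10 libraries Pearson's r with the list's mean log2 CPM was 0.991 for C1qa, 0.981 for C1qb and 0.955 for C1qc (permutation p = 1e-05, the smallest 100000 resamples can give, 2e-05 and 0.00011; adjusted p = 0.00032, 0.00032 and 0.0012 over 32 relations). Spearman's rho was 0.988, 0.915 and 0.709 (adjusted permutation p = 0.00064, 0.0063 and 0.068). Without untreated replicate 3 and RG2833 replicate 5, the 2 libraries farthest from the list's median, r was 0.991, 0.954 and 0.825 (adjusted permutation p = 0.0019, 0.010 and 0.067), so the relation for C1qc no longer passed. By rho in these 8 libraries (0.976, 0.833 and 0.429), C1qa alone passed (adjusted permutation p = 0.012, 0.10 and 0.50). For deviations from the group means r was 0.993, 0.989 and 0.954. Relative to the list, C1qa hardly varied: its log2 ratio to the microglial mean ran from 1.38 to 1.55 over all 10 libraries, and was 1.43 ± 0.03 in untreated and 1.47 ± 0.05 in RG2833 rats (SD, n = 5 each). C1qa alone had an SD of 0.38 in untreated and 0.24 in RG2833 libraries on the log2 scale. In bulk tissue, fewer cells of a type and less RNA per cell cannot be told apart. The log2 ratio of C1qb to the list was 0.54 ± 0.07 and 0.65 ± 0.08, and that of C1qc 0.39 ± 0.10 and 0.36 ± 0.09, with overlapping ranges in both.

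**Figure D2:**
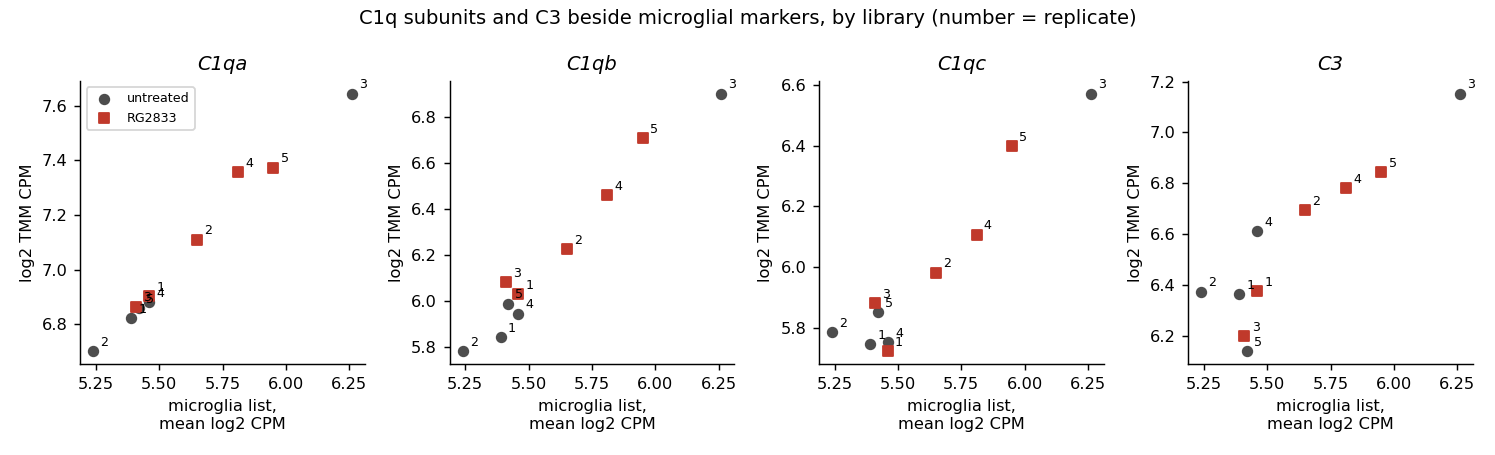
Log2 CPM of C1qa, C1qb, C1qc and C3 (vertical axes) against the mean log2 CPM of 10 microglial genes (horizontal axes) in 10 libraries (grey circles, untreated; red squares, RG2833; numbers are replicate numbers). The C1q points lie near a line with r of 0.991, 0.981 and 0.955, untreated replicate 3 is at the top of each panel, and C3 is more scattered (r = 0.903).

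The 3 libraries with the most C1qa, untreated replicate 3 and RG2833 replicates 4 and 5, were also the lowest in the summed neuronal list (3024, 3518 and 3376 CPM, against 4365 to 5268 in the others). For deviations from the group means, r of C1qa with the 6 neuronal genes ran from -0.872 (Rbfox3) to -0.117 (Gad1). The part of neuronal RNA in the C1q values was not tested. C1q also went with the astrocyte and endothelial lists. Pearson's r of C1qa was 0.841 with the astrocyte list and 0.829 with the endothelial list (adjusted permutation p = 0.0086 and 0.013, n = 10). Spearman's rho was 0.879 and 0.721, and the second did not pass (adjusted permutation p = 0.014 and 0.068). Without the 2 libraries farthest from each list's median r was 0.781 and 0.638 (adjusted permutation p = 0.034 and 0.19) and rho 0.833 and 0.476 (0.10 and 0.48), so only the astrocyte list passed, and by r alone. The genes closest to C1qa in deviations from the group means were Pld4 (r = 0.995), Morn4 (0.994), Ctss (0.994), Lrsam1 (0.992) and Slco2b1 (0.991). Ctss, the cathepsin S gene, is also in the microglial list.

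The sequences before C1qa and C1qb are shown because these neighbours on chromosome 5 moved together; C1qc has no entry in the table. Capitals mark every match to the 4 motifs. C1qa has 1 match to TTCNNNGAA, at bases -90 to -82 counted from the start site. C1qb has 2 matches to GAGGAA, 1 on each strand, and no 2 matches overlap. They share none of the 4 motifs in this window. The windows are chr5:154419934-154420183 and chr5:154407828-154408077, both on the minus strand of GRCr8 (RefSeq).
C1qa: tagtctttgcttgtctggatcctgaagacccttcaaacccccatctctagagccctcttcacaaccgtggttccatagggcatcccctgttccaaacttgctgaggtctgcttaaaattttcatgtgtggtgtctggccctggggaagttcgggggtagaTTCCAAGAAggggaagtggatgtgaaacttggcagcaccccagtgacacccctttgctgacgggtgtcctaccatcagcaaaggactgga
C1qb: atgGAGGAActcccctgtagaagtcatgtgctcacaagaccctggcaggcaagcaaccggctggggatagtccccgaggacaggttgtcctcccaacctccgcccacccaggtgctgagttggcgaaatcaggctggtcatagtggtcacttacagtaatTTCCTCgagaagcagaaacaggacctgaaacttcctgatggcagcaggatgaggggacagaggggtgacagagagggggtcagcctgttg

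C3, the component at which the pathways meet, was high in the same untreated rat as C1q. It stood at 82.3, 82.9, 142, 97.7 and 70.5 CPM in untreated replicates 1 to 5, and at 83.0, 103.5, 73.4, 109.9 and 115 CPM in RG2833 replicates 1 to 5. The means of 95.1 ± 28 and 96.9 ± 17.9 CPM (SD, n = 5 each) differed by less than either SD (log2 fold change 0.03, SE 0.19; edgeR adjusted p = 0.996). The sign was not stable: leaving out 1 library at a time gave values from -0.0636, without untreated replicate 5, to 0.217, without untreated replicate 3. C3 also followed the microglial list, with r = 0.903 and rho = 0.867 (adjusted permutation p = 0.0020 and 0.014, n = 10). Without untreated replicate 3 and RG2833 replicate 5 r was 0.744 and did not pass (adjusted permutation p = 0.13), so this relation rests partly on those rats. C3 went with the endothelial list too (r = 0.777, rho = 0.818, adjusted permutation p = 0.026 and 0.031, n = 10). Without the same 2 libraries C3 did not pass with that list (r = 0.557, adjusted permutation p = 0.24). Its nearest genes in deviations from the group means were Brca1 (r = 0.971), Mpeg1 (0.960), Surf2 (0.957), Gas5 (0.955) and Flot2 (0.954). The window before C3 holds 1 TTGCNNAA match. Of the alternative pathway genes, Cfb (factor B) had a log2 fold change of 0.04 (SE 0.21) and Cfp (properdin) of -0.18 (SE 0.22). Cfd (factor D), named after its values were seen, averaged 1.80 ± 1.21 CPM without and 0.879 ± 0.395 CPM with the drug (SD, n = 5 each; log2 fold change -1.03, SE 0.48; unadjusted p = 0.0577, edgeR adjusted p = 0.841). Untreated replicate 2 held 3.89 CPM of it, against 0.869 to 1.61 CPM in the other untreated and 0.192 to 1.19 CPM in the RG2833 libraries.

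Serping1, C1s, C1r and C4a were each highest in the same rat, untreated replicate 2. Serping1 stood at 12.6, 35.8, 13.4, 23.2 and 23.0 CPM in untreated replicates 1 to 5. In RG2833 replicates 1 to 5 it stood at 19.1, 15.6, 16.5, 13.8 and 14.8 CPM. All 5 RG2833 values were below the untreated mean, but they lay inside the untreated range. The means were 21.6 ± 9.39 and 16.0 ± 2.01 CPM (SD, n = 5 each), with a log2 fold change of -0.44 (SE 0.26) that did not pass (unadjusted p = 0.119, edgeR adjusted p = 0.841). Without untreated replicate 2 it was -0.178, and without untreated replicate 2 and RG2833 replicate 1 together it was -0.259. Without untreated replicate 1 it was -0.580 (unadjusted p = 0.0328 in edgeR), and without untreated replicate 3 it was -0.567 (unadjusted p = 0.0406 in edgeR). In the fit without untreated replicate 3, 1730 genes had an unadjusted p under 0.05, against 688 with all libraries.

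C1s, the protease that cleaves C4 and C2, ran from 13.2 to 24.7 CPM (median 16.9) in untreated and from 13.8 to 18.5 CPM (median 17.7) in RG2833 rats. Its log2 fold change was -0.05 (SE 0.15; edgeR adjusted p = 0.983) and turned to 0.107 without untreated replicate 2. C1r, the partner protease and no member of the 9, was likewise highest in that library (57.8 CPM, against 21.0 to 37.3 in the others) and had a log2 fold change of -0.22 (SE 0.25). Over the 10 libraries the deviations of Serping1 from its group means went with those of C1r (r = 0.823) and C1s (r = 0.764). The relations of C1s and Serping1 to the fibroblast list did not hold without untreated replicate 2 and RG2833 replicate 1, which were left out together: r was 0.718 and 0.657 with all libraries (adjusted permutation p = 0.088 and 0.10, n = 10) and 0.181 and -0.300 without these 2. In that list all 7 genes had a negative fitted change (median log2 fold change -0.94), where 6511 of 12161 genes tested did (median -0.01), and 0 had an unadjusted p under 0.05 in edgeR, where 5.66% did. The list's group difference depends on the libraries kept. Its mean log2 CPM was 3.74 in untreated and 3.23 in RG2833 rats. The untreated mean was 3.12 without untreated replicate 2, which turns the difference from -0.509 to 0.106. RG2833 replicate 1, next highest at 4.42, was kept there, while the other RG2833 libraries stood at 2.70 to 3.52. The difference without both libraries was not computed. The part of the fibroblast and meningeal genes in the values of Serping1, C1s and C4a was not tested. The genes nearest to Serping1 were Tspan31 (r = 0.956), Agtrap (0.955), Loxl4 (0.941), Tnxa-ps1 (0.925) and Ift43 (0.924).

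**Figure D3:**
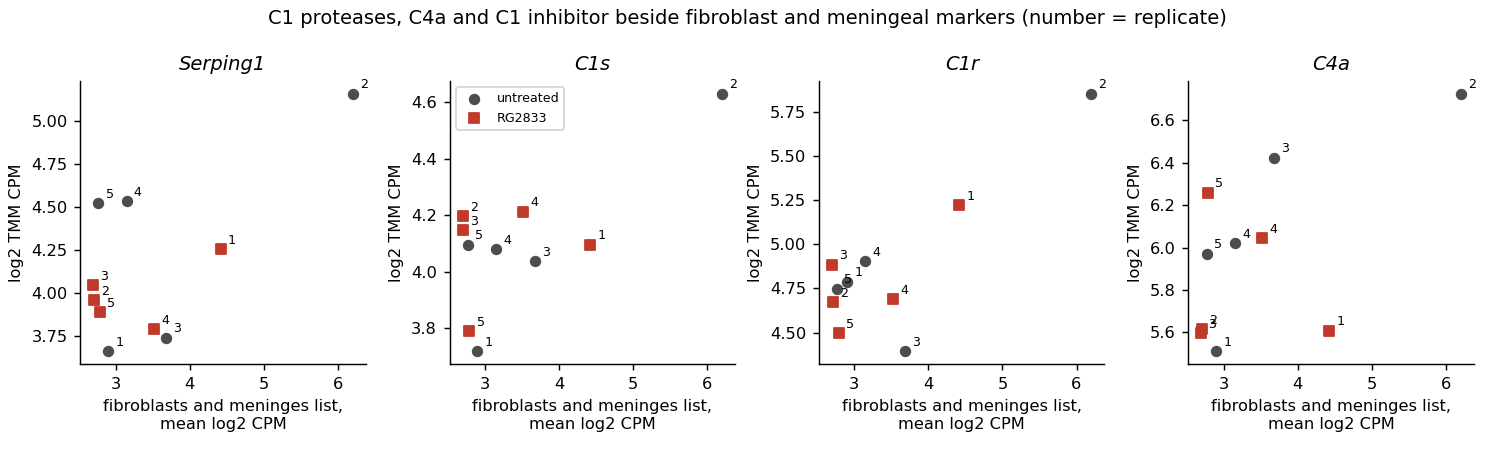
Log2 CPM of Serping1, C1s, C1r and C4a (vertical axes) against the mean log2 CPM of 7 fibroblast and meningeal genes (horizontal axes) in 10 libraries (grey circles, untreated; red squares, RG2833; numbers are replicate numbers). Untreated replicate 2 is at the upper right of all 4 panels, and RG2833 replicate 1, next in the list, lies among the remaining libraries in C1s and C4a.

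Deviations of Masp1 and Serping1 from their group means ran in opposite directions. This pair was picked after its values were seen, as the lowest of 36 pairs of members, with r = -0.856 for deviations from the group means. The untreated rats with the least Serping1, replicates 1 and 3, had the most Masp1, and RG2833 replicate 4 had the least Serping1 and the most Masp1 of its group. Of the 36 pairs, 6 had an r over 0.8, and these were the 6 pairs among C1qa, C1qb, C1qc and C3, up to 0.982 for C1qb with C1qc. Serping1 was not alone in this: r of Masp1 was also negative with C1r (-0.680), C1s (-0.506) and C4a (-0.182), and it was 0.583 with C1qa. With the 12 choroid plexus genes, r ran from -0.580 to -0.416 for Masp1 and from 0.502 to 0.641 for Serping1. With the microglial list r was 0.546 for Masp1 and -0.61 for Serping1, and with the astrocyte list 0.561 and -0.596. The part of these 3 lists in this pair was not tested.

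**Figure D4:**
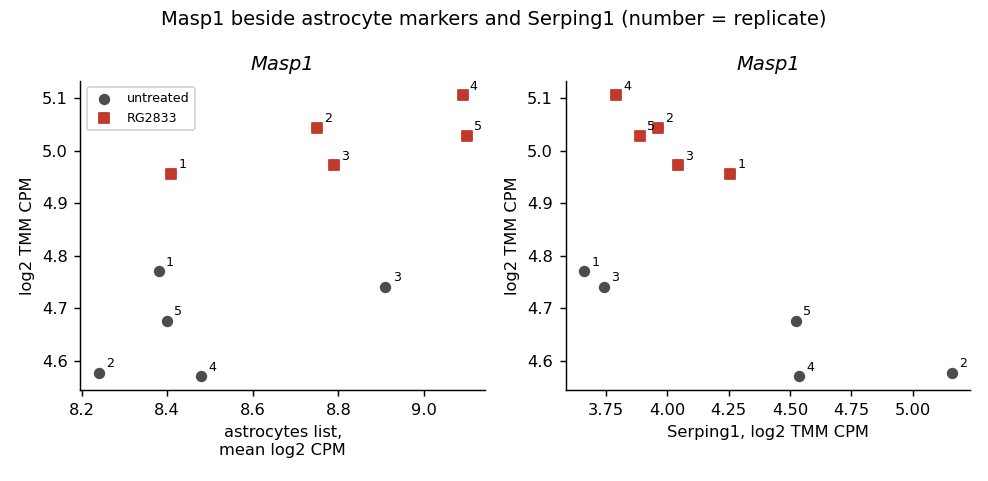
Log2 CPM of Masp1 (vertical axes) against the mean log2 CPM of 11 astrocyte genes (left) and against log2 CPM of Serping1 (right) in 10 libraries (grey circles, untreated; red squares, RG2833; numbers are replicate numbers). For deviations from the group means r is 0.561 on the left and -0.856 on the right; that Masp1 separates the groups is the reason it was chosen.

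C4a encodes C4, the substrate of C1s and MASP-2. It stood at 45.6, 105.8, 85.8, 65.0 and 62.8 CPM in untreated replicates 1 to 5 and at 48.8, 49.1, 48.4, 66.1 and 76.6 CPM in RG2833 replicates 1 to 5. RG2833 replicates 1, 2 and 3 lay close together near the lowest untreated value, and the groups overlapped. The means were 73.0 ± 23.3 and 57.8 ± 12.9 CPM (SD, n = 5 each), with a log2 fold change of -0.34 (SE 0.22; unadjusted p = 0.154, edgeR adjusted p = 0.869). Without untreated replicate 2 it was -0.165, and without that library and RG2833 replicate 1 it was -0.117. It was larger, at -0.467 (unadjusted p = 0.0387 in edgeR), without untreated replicate 1, and at -0.457 (unadjusted p = 0.0653 in edgeR) without RG2833 replicate 5. Against the astrocyte list, all of whose genes had positive fitted changes, the mean log2 ratio of C4a was -2.35 ± 0.50 in untreated and -3.0 ± 0.18 in RG2833 rats. Against the fibroblast and meningeal list the difference had the other sign, with 2.39 ± 1.06 in untreated and 2.60 ± 0.86 in RG2833 rats. For deviations from the group means C4a went with the endothelial list (r = 0.841, rho = 0.903; adjusted permutation p = 0.0062 and 0.0077, n = 10), while with undivided values r was 0.586 and did not pass (adjusted permutation p = 0.13). Its nearest genes were Acadvl (r = 0.977), Ahnak (0.976), Foxc1 (0.975), Igbp1 (0.975) and Tnfsf10 (0.970).

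Levels of C4a are uncertain because C4b is a near copy. The counts of both genes were not whole in all 10 libraries, which is what RSEM gives where reads fit several genes. C4b was credited with 5.10% to 11.7% of the sum of both. That sum averaged 78.9 ± 26.3 CPM without and 63.0 ± 15.4 CPM with the drug (SD, n = 5 each), a difference of -20.2% of the untreated mean, close to the -20.8% of C4a alone. The windows before the start sites show how alike the copies are outside the transcripts too: of 245 aligned bases 226 (92.2%) were identical and 19 differed, with no gap inside the alignment. In capitals are the bases that differ. The windows are chr20:4010107-4010356 and chr20:4201729-4201978, both on the plus strand of GRCr8 (RefSeq).
C4a: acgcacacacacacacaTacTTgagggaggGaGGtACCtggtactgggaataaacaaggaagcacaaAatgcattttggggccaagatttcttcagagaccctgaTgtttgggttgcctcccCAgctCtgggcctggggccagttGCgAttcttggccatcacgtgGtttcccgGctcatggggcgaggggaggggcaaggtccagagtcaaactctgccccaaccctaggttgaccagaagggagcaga
C4b: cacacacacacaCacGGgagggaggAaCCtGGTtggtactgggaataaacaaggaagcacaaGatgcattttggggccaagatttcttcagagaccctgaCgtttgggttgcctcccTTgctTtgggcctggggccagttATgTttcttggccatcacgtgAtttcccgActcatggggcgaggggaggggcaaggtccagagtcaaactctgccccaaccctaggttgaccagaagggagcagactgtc

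Cd59, which encodes the membrane-anchored inhibitor of the terminal pore, was at 131, 146, 157, 117 and 127 CPM in untreated replicates 1 to 5. In RG2833 replicates 1 to 5 it was at 176.5, 144, 145, 161 and 153 CPM. All 5 RG2833 values were above the untreated mean, while untreated replicates 2 and 3 lay inside the RG2833 range. The means were 136 ± 15.9 and 156 ± 13.3 CPM (SD, n = 5 each), with a fitted log2 fold change of 0.20 (SE 0.09). Of the 8 members other than Masp1, Cd59 alone had an unadjusted p under 0.05 (0.0494, where 5.66% of all genes did), and it did not pass the adjustment in edgeR (adjusted p = 0.841). Of 8 endothelial genes 7 also had a positive fitted change (median log2 fold change 0.28), where 5650 of 12161 genes tested did (median -0.01). None of the 8 had an unadjusted p under 0.05 in edgeR. The mean log2 ratio of Cd59 to that list was 2.27 ± 0.26 in untreated and 2.23 ± 0.36 in RG2833 rats. It varied more than Cd59 alone, whose log2 CPM had an SD of 0.17 and 0.12. Over 10 libraries Cd59 did not pass with the list (r = 0.608, rho = 0.697, adjusted permutation p = 0.11 and 0.069). For deviations from the group means r was 0.533, and 0.651 with the fibroblast list (adjusted permutation p = 0.18 and 0.077). The part of the endothelial genes in the Cd59 difference was not tested. The log2 fold change of Cd59 stayed between 0.151 and 0.258 in all 18 alternatives, with an unadjusted p from 0.0088 to 0.127 and under 0.05 in 8 of them. The 0.0088 came without untreated replicate 3, where 1730 genes had an unadjusted p under 0.05. The expected counts of Cd59 were not whole in any of the 10 libraries, as happens where reads fit several genes, so the level is uncertain.

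Beyond the 9 members, the wider set of complement genes gave no call. Of 58 genes listed by role, 51 were in the table and 36 were tested. Without the 9 members 27 tested genes remained, 8 with a positive and 19 with a negative fitted change and a median log2 fold change of -0.09, against 5650, 6511 and -0.01 over all genes tested. Of these 27, 0 had an unadjusted p under 0.05 in edgeR, where 5.66% of all genes did, and 0 had groups that did not overlap, where 1.00% of all genes did. The terminal pathway was almost unread: C9 had 0 counts in all 10 libraries, and C8a, C8b and C6 had 1, 12 and 32 counts in all. C8g, the only tested gene of that list, was at 1.53 ± 0.455 CPM without and 1.5 ± 0.207 CPM with the drug (SD, n = 5 each). C5 and C7 were not analysed here. Among 10 tested regulators other than Serping1 and Cd59, 4 had a positive and 6 a negative fitted change. Clu (clusterin), which binds the nascent pore, had a log2 fold change of 0.13 (SE 0.13), and the complement inhibitor Susd4 one of 0.02 (SE 0.05). Of 6 tested receptors 3 were on each side of 0. Itgam, a chain of complement receptor CR3 on microglia, had a log2 fold change of -0.11 (SE 0.15), and C3ar1, the receptor for C3a, one of 0.21 (SE 0.24). Nptx1, Nptx2 and Nptxr, neuronal pentraxins that bind C1q, had negative fitted changes of -0.08 (SE 0.35), -0.15 (SE 0.21) and -0.21 (SE 0.16). All 6 genes of the neuronal list also had negative fitted changes (median log2 fold change -0.11), 0 with an unadjusted p under 0.05 in edgeR. The part of neuronal RNA in the pentraxin values was not tested. Genes named here beyond C8g, Itgam and Nptxr were picked after their values were seen. In edgeR no list had a gene past the adjusted threshold.

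**Figure D5:**
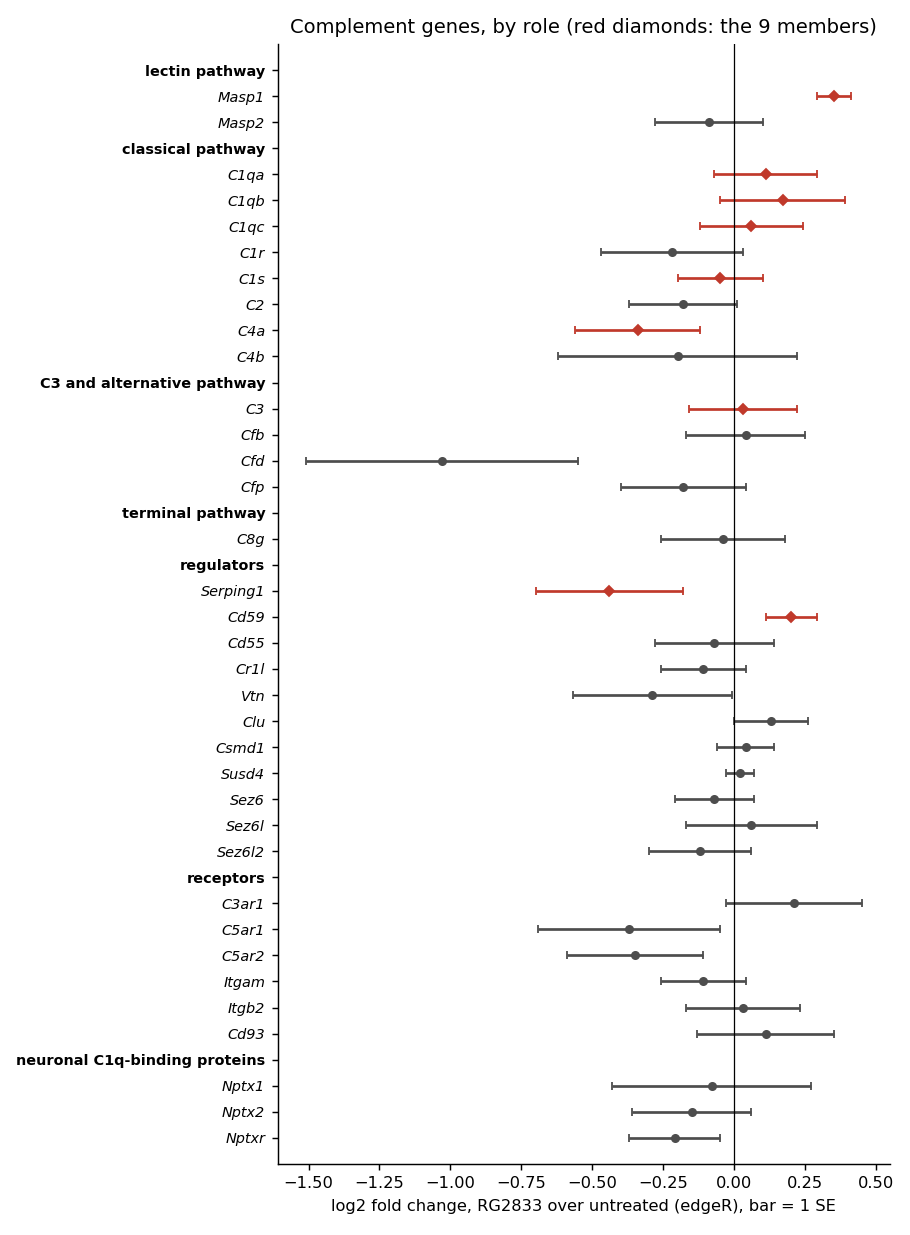
Fitted log2 fold change of RG2833 over untreated (horizontal axis; bars show 1 SE) for 35 of the 36 complement genes tested, grouped by role; red diamonds are the 9 members and grey circles are 26 others. Masp1, chosen for its difference, and Cd59 lie to the right of 0 by more than 1 SE, and Serping1, C4a, Cfd, Vtn, C5ar1, C5ar2 and Nptxr to the left by more than 1 SE.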

How the data were processed

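Poly(A) RNA of the left hippocampus was sequenced from 10 rats, 5 in each group, with a strand-specific kit, per the labels' protocols. The authors deposited RSEM expected counts per gene (11.6% of values not whole), and a second deposited table of TMM-normalized CPM, a signal in which 100% of values above 0 were whole multiples (within 0.01) of 1 step per library; the reads recovered equalled the rounded expected counts. The submitters' processing notes name bcl2fastq 2.17, Bowtie2 2.1.0, RSEM 1.2.15, edgeR and build rn6; the annotation is not given in the sources used here. Expected counts were rounded, filtered with filterByExpr (minimum count 10, total 15), scaled by TMM and tested with edgeR 4.0.16 (quasi-likelihood, robust; R 4.3.3). P-values were adjusted by Benjamini-Hochberg over 12161 genes at a threshold of 0.05, and SEs came from the F statistic. Log2 CPM used a prior count of 2. Correlations with marker lists used two-sided permutation tests (100000 resamples), adjusted over 32 relations (8 members, 4 lists); Masp1 was left untested. Alternatives were limma-voom (limma 3.58.1), DESeq2 1.42.0, other scalings and filters, a replicate block and left-out libraries. Scripts were tested on simulated data. Some items are not reported here.

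The members, lists and tests were chosen with earlier results of these data known. Named were the 9 members, complement genes with an unadjusted p under 0.05 or groups that did not overlap (otherwise the most abundant of a list), and the 5 genes most like each of 5 members; other named genes were picked for their role after their values were seen. 1 motif searched is given by its type alone. Of 9 members, 5 matched a RefSeq promoter entry (GRCr8); C1qc, C1s, Serping1 and Cd59 did not.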

Additional observations from a re-analysis of the deposited data

Results flagged for a closer look

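In a group of 5, a value is listed here when its gap to the nearest other value exceeds 0.71 of the group's range. Of 30 groups of 5 values looked at (9 members and 6 marker lists), 8 had such a value, where chance gives about 1 in 20 (1.5 of 30 if they were independent). They are not independent: the 3 C1q genes and the microglial list go together, and 4 of the 8 are untreated replicate 3 in these. Untreated replicate 3 lay above the other untreated libraries by 0.808 of the range in C1qa, 0.814 in C1qb and 0.872 in C1qc, and by 0.792 in the microglial list. C1s was low in RG2833 replicate 5 by 0.725 of the range (13.8 CPM, against 17.1 to 18.5 in the other 4). Untreated replicate 2 was high in the list of fibroblasts and meninges by 0.735, and RG2833 replicate 1 in the choroid plexus list by 0.717. RG2833 replicate 4 was high in the list of border macrophages by 0.732 of a narrow range (0.78 to 1.40 in mean log2 CPM).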

How the results depend on the processing

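The count of genes past an adjusted p of 0.05 was 0 in all alternatives except DESeq2, which called 7 but made more false calls than its nominal rate in simulated data, and the count for the 8 members other than Masp1 was 0 in all 18. The 688 genes with an unadjusted p under 0.05 became 401 with the replicate block and 375 to 1730 with 1 library left out: untreated replicate 3 gave the 1730, RG2833 replicate 4 the 375 and RG2833 replicate 5 a count of 423. Same-numbered rats did not deviate together (r over 0.1 in 0 of 5 pairs, and 0 of 5 untreated libraries correlated best with their own number). With 5 pairs this cannot exclude that the numbers pair rats. The block made no call among the 8 members other than Masp1. Signs changed for C1qc (-0.0471 to 0.251 with 1 library left out), C1s (-0.135 to 0.107, and 0.0999 without the 2 libraries rich in choroid plexus RNA) and C3 (-0.0636 to 0.217); the cause was not tested. C1qa, C1qb, C4a, Serping1 and Cd59 kept their sign in all 18. Of the 32 relations with marker lists 11 passed, 5 without the 2 libraries farthest from the median, which leaves fewer samples, and 13 for deviations from the group means; by Spearman's rho, added after seeing the data, the counts were 7, 3 and 9. The fibroblast and meningeal list's difference of -0.509 became 0.106 without untreated replicate 2 and with RG2833 replicate 1 kept, also added after seeing the data. Ratios to marker lists kept their direction with a prior count of 0.5. The coefficient of variation of the C1q genes was 28.4% to 37.8% in untreated rats, which limits the precision of their differences.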

Other observations

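Of 3 genes of border macrophages tested, all had negative fitted changes, and 2 had an unadjusted p under 0.05 (2.71% of all genes did with RG2833 lower) while 0 passed the adjustment in edgeR. Mrc1, the mannose receptor gene, had a log2 fold change of -1.34 (SE 0.52) and Cd163, a haemoglobin scavenger receptor gene, one of -1.19 (SE 0.52). The remaining gene, Lyve1, had one of only -0.09 (SE 0.23). Untreated replicate 2 held 14.4 CPM of Mrc1, against 1.599 to 4.48 CPM in the other 9 libraries. The list's mean log2 CPM was lower in RG2833 rats by a difference of -0.596 with all libraries and of -0.271 without untreated replicate 2, an alternative chosen after seeing the data.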
